A study of Mus musculus with 8 samples.

Results

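The genes described here are 52 genes of mitosis and chromosome segregation, taken by name from a fixed list and measured by RNA sequencing in CD8+ T cells, the cytotoxic lineage of T lymphocytes. All 52 symbols were found among the 48321 gene symbols of the count tables. By role they fall into 9 genes of mitotic entry and exit, 5 of the spindle assembly checkpoint, 8 mitotic kinases and chromosomal passenger subunits, 8 centromere and kinetochore genes, 11 kinesins and spindle proteins, 3 cytokinesis genes and 8 genes of chromosome structure. The cells were sorted peripheral CD8+ T cells from the spleen of C57BL/6 mice. The series as a whole concerns mice with loxP-flanked *Satb1* alleles and the E8I-cre transgene, a recombinase driver that acts in mature CD8 lineage cells. SATB1 is a genome organiser that tethers AT-rich DNA in the T cell nucleus. The 4 groups, each of 2 libraries, were WT at day 0, WT at day 5 of culture in vitro, KO at day 0 and KO at day 5. The labels give the genotype only as WT or KO. Whether the WT mice carried the floxed alleles or the Cre, the age of the mice, the stimuli used in culture and whether replicates came from separate mice are not given in the sources used here. The p-values therefore measure the spread between these libraries, which may be technical.

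Library depth lay between 4170126 and 11117971 gene counts, which was 21.2% to 24.5% of the records of a library. Replicate 2 of KO at day 0 had a count for 26002 genes, against 17040 to 22982 in the other 7 libraries. Levels are given as counts per 1000000 gene counts (CPM), on library sizes scaled by the trimmed mean of M-values (TMM). *Satb1* itself, the targeted gene, was at 97.8 and 91.6 CPM in WT and 144 and 125 CPM in the KO-labelled libraries at day 0. At day 5 it was at 96.5 and 116 CPM in WT and 56.5 and 62.3 CPM in the KO-labelled libraries. The day 0 difference ran against the label and did not pass the threshold (log2 fold change 0.51, SE 0.15, edgeR false discovery rate (FDR) 0.125). The day 5 difference passed (log2 fold change -0.84, edgeR FDR 0.0162), but not without WT replicate 2 (FDR 0.0848), KO replicate 1 (FDR 0.174) or KO replicate 2 (FDR 0.156) of that day. The counts are per gene symbol, so they do not show which part of the *Satb1* transcript the reads came from. Because of the day 0 value, these libraries are called KO-labelled here. The CD3 and CD8 genes that define the labelled cell type summed to between 9521 and 10680 CPM at day 0 and between 6160 and 6871 CPM at day 5. Markers of other cells were low, apart from the B cell marker *Cd79b* and, at lower levels, the plasma cell marker *Xbp1*. The CD4 T cell, NK cell and red cell precursor lists summed to at most 2.998 CPM in every library and the myeloid list of 7 genes to between 4.23 and 18.8 CPM. Of the B cell markers, *Cd79b* was at 66.7 to 164 CPM, *Cd79a* at no more than 2.26 CPM, and *Ms4a1* and *Pax5* at no more than 1.13 CPM each. The plasma cell list summed to between 5.32 and 40.2 CPM and was almost all *Xbp1*, with *Jchain* and *Sdc1* under 1 CPM. The part of these lists in the results was not tested.

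In a dividing cell, cyclin B with CDK1 drives entry into mitosis, condensin and topoisomerase II compact and untangle the chromosomes, and kinesins and other spindle proteins build the spindle. Kinetochores attach chromosomes to it, and the spindle assembly checkpoint holds the anaphase-promoting complex (APC/C) inactive until all are attached. APC/C then marks cyclin B and securin for destruction, which frees separase to cleave cohesin, and cytokinesis divides the cell. Naive CD8+ T cells rest outside the cycle and divide quickly once activated. Many of these genes are transcribed in G2 and M phase through promoters that hold a cell cycle genes homology region (CHR) and CCAAT boxes, the sites of the DREAM and MuvB complexes and of NF-Y.

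The first question the design poses is how these genes changed over 5 days of culture. In WT, 51 of the 52 genes rose and 1, *Smc4*, fell (edgeR FDR under 0.05). Of all 12597 genes tested, 48.3% were called in this comparison, 24.7% as higher and 23.6% as lower at day 5. In the KO-labelled libraries, 50 genes rose, *Smc4* fell and *Pttg1* did not pass the threshold. There 50.2% of all genes were called, 26.2% as higher and 24% as lower. The same 50 genes rose in both genotypes, against 20.5% of all genes tested. These 50 covered every role on the list, from the cyclins to the condensin subunits. In WT, both day 5 libraries lay above both day 0 libraries in 51 of the 52 genes, against 35.7% of all genes, and below them in *Smc4* alone, against 38% of all genes. In the KO-labelled libraries they lay above in 50 genes and below in 1, against 38.2% and 39.7% of all genes, and overlapped in *Pttg1*.

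The size of the change was large. The median log2 fold change of the 52 genes was 6.11 in WT, or 69.3-fold, and 6.34 in the KO-labelled libraries, or 80.7-fold, while the medians over all genes tested were -0.04 and -0.05. The WT median was also 6.11 with *Esco2*, which had no WT read at day 0, set to its lower bound. In both genotypes, 48 of the 52 genes rose by over 2-fold, 40 by over 8-fold and 25 by over 64-fold. All 52 passed the filter on low counts, but 17 of them passed only through the day 5 libraries and so had to differ between days. They include *Ccnb1*, *Cdk1*, *Cdc20*, *Plk1* and *Aurkb*. The gene with the largest mean change in each role is also among them, namely *Ube2c*, *Bub1*, *Pbk*, *Cenpf*, *Kif2c*, *Anln* and *Esco2*. The counts given above for the 52 genes include these 17. The other 35 also had the counts to pass at day 0. Among these, 34 rose in WT and 33 in the KO-labelled libraries, with median log2 fold changes of 5.11 and 5.06. Scaling by library totals in place of TMM moved the median of all genes to -0.17 in WT and -0.23 in the KO-labelled libraries and that of the 52 genes to 6.00 and 6.16, and no member changed direction with culture. With that scaling, the genes called in the KO-labelled libraries were 2755 higher and 3936 lower, against 3296 and 3029 with TMM. In bulk RNA, a larger share of dividing cells and more of a transcript per cell cannot be told apart.

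Summed over the list, the genes made up 1451 and 1510 CPM in the WT libraries and 1690 and 1683 CPM in the KO-labelled libraries at day 0. At day 5 they made up 17260 and 18050 CPM in WT and 16110 and 18190 CPM in the KO-labelled libraries. As unscaled counts they were 0.152% to 0.179% of the gene counts of a library at day 0 and 1.5% to 1.8% at day 5. The day 0 and day 5 libraries did not overlap. At day 0 both KO-labelled sums lay above both WT sums, also without *Pttg1* (1504 and 1564 CPM against 1427 and 1489 CPM). *Smc4* alone was then at 437 and 431 CPM in WT and 554 and 595 CPM in the KO-labelled libraries. By role, the day 0 ratio of the KO-labelled to the WT mean sum ran from 0.647 for cytokinesis to 3.395 for entry and exit. The higher sums thus do not show a difference across the whole list. At day 5 the genotypes overlapped in this sum. At day 0, *Bub3* and *Smc4* alone held between 57.1% and 61.2% of this sum, and 37 to 39 of the 52 genes were under 10 CPM. At day 5, those 2 genes held between 5.95% and 6.70%, and 42 to 44 genes were above 100 CPM.

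**Figure D1:**
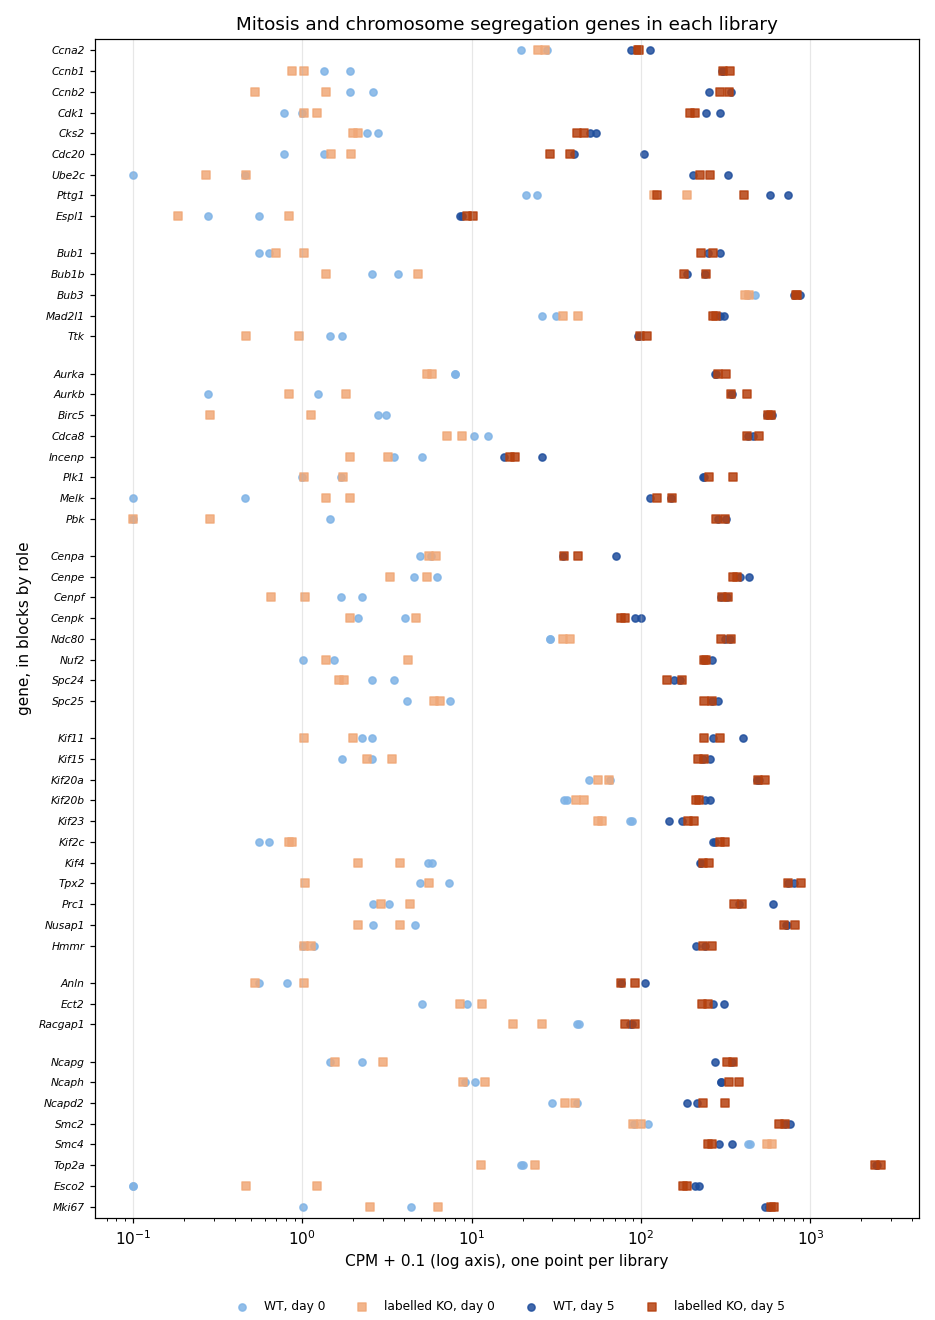
Level of each of the 52 genes in each of the 8 libraries, as CPM plus 0.1 on a log axis, with genes in blocks by role; circles are WT, squares the KO-labelled libraries, pale points day 0 and dark points day 5. Dark points lie to the right of pale points for all genes but *Smc4*, where they lie to the left, and *Pttg1*, where 1 square of day 5 lies between the pale squares.

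The promoters of the list were compared with those of other genes for the letters of the CHR (TTTGAA or TTCGAA) and of the CCAAT box (CCAAT), each searched on both strands in the 250 bases before the RefSeq start (GRCm38.p6). A promoter was matched for 43 of the 52 genes. A CHR anywhere in the 250 bases was found in 39.5% of the 43, against 19.6% of the 27025 genes of the promoter table and 15% of the 8627 of them tested here. A CHR within the last 100 bases before the start was found in 11 of the 43, or 25.6%, against 7.18% and 4.79%. At least 2 CCAAT matches were found in 48.8%, against 11.5% and 15.4%. Both a CHR and a CCAAT match were found in 34.9%, against 7% and 5.89%. A pair of CCAAT matches on 1 strand with starts 31 to 35 bases apart, a spacing looked for after the sequences had been seen, was found in 8 of the 43 genes, or 18.6%, against 0.981% and 1.96%. A match is a description of the letters and not evidence of binding.

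The following 150 bases before the start, written 5′ to 3′ along the gene's own strand with CHR and CCAAT matches of either strand in capitals (TTCAAA and ATTGG are their forms on the other strand), show these features in genes that rose with culture. *Top2a* (chr11:99024190-99024339, minus strand), which encodes topoisomerase II alpha, and *Mki67* (chr7:135716380-135716529, minus strand), which encodes the proliferation marker Ki-67, hold both motifs. *Ccnb2* (chr9:70421555-70421704, minus strand), *Hmmr* (chr11:40733438-40733587, minus strand) and *Ttk* (chr9:83834539-83834688, plus strand) hold CCAAT matches in series. *Kif11* (chr19:37376232-37376381, plus strand), which encodes the motor kinesin-5, holds 1 match of each.
Top2a: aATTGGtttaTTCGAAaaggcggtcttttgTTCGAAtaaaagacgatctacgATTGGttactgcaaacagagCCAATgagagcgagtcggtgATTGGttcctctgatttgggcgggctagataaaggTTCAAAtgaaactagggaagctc
Mki67: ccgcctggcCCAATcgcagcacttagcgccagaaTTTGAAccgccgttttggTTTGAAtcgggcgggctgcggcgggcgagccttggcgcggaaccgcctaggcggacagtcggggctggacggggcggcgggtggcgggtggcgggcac
Ccnb2: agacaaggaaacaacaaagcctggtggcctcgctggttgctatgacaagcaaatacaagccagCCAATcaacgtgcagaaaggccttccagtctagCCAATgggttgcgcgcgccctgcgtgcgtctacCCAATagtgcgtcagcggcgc
Hmmr: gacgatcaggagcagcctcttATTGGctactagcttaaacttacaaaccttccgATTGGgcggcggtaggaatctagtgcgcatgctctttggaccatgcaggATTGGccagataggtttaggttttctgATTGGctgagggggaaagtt
Ttk: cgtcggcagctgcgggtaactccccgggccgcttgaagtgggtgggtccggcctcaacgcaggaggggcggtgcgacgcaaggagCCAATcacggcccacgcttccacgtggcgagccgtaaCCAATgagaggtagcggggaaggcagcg
Kif11: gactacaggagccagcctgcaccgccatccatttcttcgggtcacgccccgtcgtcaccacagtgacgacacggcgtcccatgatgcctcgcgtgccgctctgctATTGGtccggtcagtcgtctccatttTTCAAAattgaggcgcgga

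The genes of mitotic entry and exit rose from a summed 54.5 ± 8.66 CPM (SD, n = 2) to 2020 ± 322 CPM in WT, and from 185 ± 44.7 CPM to 1523 ± 293 CPM in the KO-labelled libraries, where *Pttg1* made up most of the day 0 sum. All 9 rose in WT and 8 rose in the KO-labelled libraries. The largest change was in *Ube2c*, the E2 enzyme that works with APC/C. *Ube2c* stood at 0.358 and 0 CPM in WT and 0.172 and 0.367 CPM in the KO-labelled libraries at day 0, and at 203, 324, 224 and 256 CPM at day 5. With 2 reads in WT at day 0, the WT ratio was 1270 with a 95% counting interval from 352 to 10500. The smallest change among those that rose in both genotypes was in *Ccna2*, which encodes cyclin A2 and is also used in S phase. *Ccna2* went from 27.7 and 19.5 CPM to 114 and 87.5 CPM in WT, a 4.24-fold rise, and from 24.7 and 27.0 CPM to 95.7 and 97.7 CPM in the KO-labelled libraries, a 3.75-fold rise. Of their exon length, 22.8% in *Ube2c* and 12.5% in *Ccna2* overlaps a gene on the other strand, and the strand setting of the counting is not given in the sources used here.

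CDK1, the kinase of mitotic entry, and CDC20, the APC/C activator, were under 2 CPM in every day 0 library. *Cdk1* was between 0.678 and 1.12 CPM in all 4 day 0 libraries and rose to 243 and 291 CPM in WT and 194 and 207 CPM in the KO-labelled libraries. *Cdc20* was between 0.678 and 1.84 CPM at day 0. At day 5 it was at 39.9 and 103 CPM in WT and 28.9 and 38.1 CPM in the KO-labelled libraries, so the WT replicates differed by 2.59-fold. *Espl1*, which encodes separase, lay between 8.47 and 10.1 CPM at day 5, after no more than 0.734 CPM at day 0.

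*Pttg1*, which encodes securin, the inhibitor of separase, did not follow the other genes of its role. It lies at chr11:43420250-43426251 (GRCm38, minus strand). Its level was 24.2 and 20.8 CPM in WT and 186 and 118 CPM in the KO-labelled libraries at day 0. At day 5 it was 579 and 742 CPM in WT and 125 and 407 CPM in the KO-labelled libraries. The WT libraries rose 29.2-fold (log2 fold change 4.87, SE 0.47, edgeR FDR 3.18e-06) and did not overlap between days. The KO-labelled libraries overlapped between days, and their log2 fold change was 0.80 (SE 0.39, edgeR FDR 0.104). Their 2 day 5 replicates differed by 3.27-fold, and the value was 1.42 (edgeR FDR 0.000437) without replicate 1 and -0.29 (edgeR FDR 0.402) without replicate 2.

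The 5 genes of the spindle assembly checkpoint all rose in both genotypes, with log2 fold changes from 0.88 to 9.02 in WT and from 0.96 to 8.40 in the KO-labelled libraries. *Bub1*, the kinase that places checkpoint proteins on kinetochores, had the largest change of the role. It went from 0.537 and 0.452 CPM to 291 and 250 CPM in WT and from 0.601 and 0.918 CPM to 227 and 266 CPM in the KO-labelled libraries. BUB3, which carries BUB1 and BUBR1 to the kinetochore, was abundant before culture. *Bub3* was at 430 and 474 CPM in WT and 411 and 436 CPM in the KO-labelled libraries at day 0, and at 864, 796, 831 and 820 CPM at day 5. It rose 1.84-fold in WT (edgeR FDR 3.79e-05) and 1.95-fold in the KO-labelled libraries (edgeR FDR 1.58e-05).

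The mitotic kinases and the subunits of the chromosomal passenger complex (Aurora B with INCENP, survivin and borealin) rose from a summed 29.0 ± 1.25 CPM to 2320 ± 54.4 CPM in WT and from 20.6 ± 0.276 CPM to 2471 ± 264 CPM in the KO-labelled libraries (SD, n = 2). All 8 rose in both genotypes. *Pbk*, which encodes a mitotic MAP kinase kinase-like kinase, had the largest mean log2 fold change over both genotypes. In WT, *Melk* at 601-fold and *Aurkb* at 548-fold stood above *Pbk* at 485-fold. *Melk* had 2 WT reads at day 0, and its WT ratio of summed counts was 676 with a 95% counting interval from 187 to 5580. *Pbk* had 0 and 1.36 CPM in WT and 0 and 0.184 CPM in the KO-labelled libraries at day 0, and 319, 285, 277 and 315 CPM at day 5. The KO-labelled libraries held a single read of *Pbk* at day 0, which gives a ratio of 5060 with a 95% counting interval from 907 to 200000. *Incenp*, the scaffold of the passenger complex, changed least of the role. *Incenp* went from 3.40 and 4.97 CPM to 15.5 and 25.8 CPM in WT and from 1.80 and 3.12 CPM to 18.03 and 16.9 CPM in the KO-labelled libraries. It rose 4.93-fold and 7.47-fold, while its partners *Aurkb*, *Birc5* and *Cdca8* rose between 39.1-fold and 746-fold.

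The 8 centromere and kinetochore genes all rose in both genotypes, with log2 fold changes from 3.33 to 7.67 in WT and from 2.75 to 8.55 in the KO-labelled libraries. *Cenpf*, a large kinetochore protein of G2 and M phase, had the largest mean log2 fold change over both genotypes, although in WT *Nuf2* stood above it, at 204-fold against 161-fold. It went from 2.15 and 1.58 CPM to 295 and 320 CPM in WT and from 0.944 and 0.551 CPM to 299 and 327 CPM in the KO-labelled libraries. *Cenpa*, the histone H3 variant that marks centromeres, changed least. *Cenpa* stood between 4.83 and 6.06 CPM in the 4 day 0 libraries and at 34.6, 71.1, 34.95 and 42.4 CPM at day 5, where the second WT value was 2.06-fold the first. The 4 subunits of the NDC80 complex, which grips microtubule ends, rose by different amounts. In WT the rise was 11.3-fold for *Ndc80*, 46.8-fold for *Spc25*, 54.1-fold for *Spc24* and 204-fold for *Nuf2*, which had 8 and 4 WT reads at day 0. In the KO-labelled libraries it was 8.84-fold for *Ndc80*, 40.6-fold for *Spc25*, 99-fold for *Spc24* and 76.4-fold for *Nuf2*. *Ndc80* had been at 28.7 to 37.8 CPM at day 0.

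The 11 kinesins and spindle proteins rose in both genotypes, from a summed 204 ± 15.4 CPM to 4174 ± 262 CPM in WT (SD, n = 2). *Kif2c*, the kinesin that takes microtubules apart at centromeres, changed most. It was between 0.452 and 0.772 CPM in the 4 day 0 libraries and at 273, 264, 292 and 314 CPM at day 5. *Kif23*, the motor subunit of centralspindlin, which builds the midzone between separating chromosomes, changed least. It went from 88.0 and 86.2 CPM to 147 and 175 CPM in WT, a 1.85-fold rise, and from 55.9 and 58.7 CPM to 190 and 204 CPM in the KO-labelled libraries, a 3.44-fold rise. In the cytokinesis role, *Anln*, the actin-binding scaffold anillin, rose 147-fold and 137-fold. Its CPM went from 0.716 and 0.452 to 76.4 and 106 in WT and from 0.429 and 0.918 to 75.6 and 91.8 in the KO-labelled libraries. *Racgap1*, the other subunit of centralspindlin, rose 2.07-fold in WT, from 41.5 and 42.7 CPM to 86.1 and 88.7 CPM. In the KO-labelled libraries it rose 4.03-fold, from 17.4 and 25.9 CPM to 91.4 and 79.9 CPM. Both centralspindlin genes were thus well above the floor before culture.

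Among the genes of chromosome structure, 7 of 8 rose in both genotypes and *Smc4* fell. *Smc4* (chr3:69004738-69034623, GRCm38, plus strand) encodes the ATPase that pairs with SMC2 in both condensins. Its level was 437 and 431 CPM in WT and 554 and 595 CPM in the KO-labelled libraries at day 0, and 289, 345, 249 and 262 CPM at day 5. All day 5 libraries lay below all day 0 libraries. The log2 fold change was -0.45 in WT (SE 0.12, edgeR FDR 0.00838) and -1.17 in the KO-labelled libraries (SE 0.12, edgeR FDR 6.77e-06). The WT call was lost without WT replicate 1 of day 0 (log2 fold change -0.44, edgeR FDR 0.0555) and without WT replicate 1 of day 5 (-0.31, edgeR FDR 0.056). Its partner *Smc2* rose 7.35-fold in WT and 7.15-fold in the KO-labelled libraries, and the condensin I subunits *Ncapg*, *Ncaph* and *Ncapd2* rose between 5.63-fold and 170-fold.

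*Top2a* drew the most counts of the 52 at day 5. It went from 20.03 and 19.5 CPM to 2476 and 2454 CPM in WT and from 23.6 and 11.2 CPM to 2413 and 2613 CPM in the KO-labelled libraries, whose day 0 replicates differed by over 2-fold. *Esco2*, which encodes the acetyltransferase that locks cohesin on sister chromatids in S phase, had no read in either WT library at day 0. It had 1.12 and 0.367 CPM in the KO-labelled libraries at day 0, and 220, 209, 176 and 187 CPM at day 5. Against a floor of 3 counts in the WT day 0 library where that is worth most CPM, *Esco2* was at least 316-fold higher at day 5. In the KO-labelled libraries it rose 205-fold. *Pbk* and *Esco2* lie beside each other on chromosome 14 on opposite strands with 1215 bases between them, the only pair of the 52 genes within 100 kb.

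Per kilobase of exon, the order of the levels changed between days. In WT at day 0 the highest were *Smc4* at 83.2 CPM per kilobase, *Bub3* at 64.5 and *Smc2* at 18.3. In WT at day 5 they were *Pttg1* at 330, *Top2a* at 274 and *Ccnb2* at 192 CPM per kilobase. In the KO-labelled libraries at day 5 they were *Top2a* at 279, *Ccnb2* at 204 and *Nusap1* at 185 CPM per kilobase, and *Pttg1* was eighth at 133, with replicates 3.27-fold apart. In the KO-labelled libraries at day 0 *Pttg1* was the second after *Smc4*, at 76.1 against 110 CPM per kilobase.

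**Figure D2:**
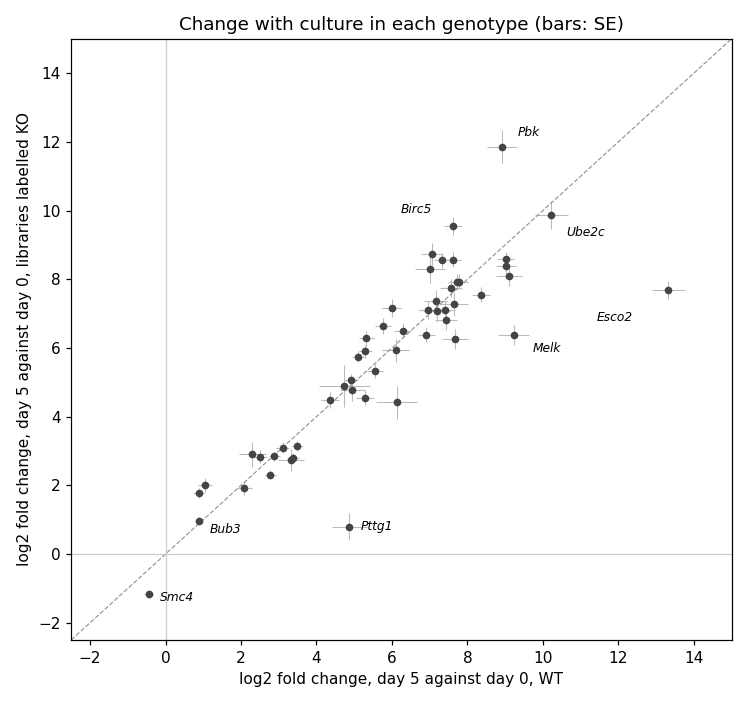
Log2 fold change from day 0 to day 5 in WT (horizontal axis) and in the KO-labelled libraries (vertical axis) for the 52 genes, with SE bars and a dashed line of equal change. Most genes lie near the line between 2 and 10, *Smc4* is below 0 on both axes, and *Pttg1* lies below the line at 4.87 and 0.80; *Esco2*, *Melk*, *Pbk* and *Ube2c* have few or no day 0 reads, so their positions depend on the prior count.

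Other mitosis genes, listed by complex, changed less uniformly than the 52. Of 103 such genes, 70 rose and 5 fell in WT, or 68% and 4.85%, against 24.7% and 23.6% of all genes. In the KO-labelled libraries 71 rose and 5 fell, or 68.9% and 4.85%, against 26.2% and 24% of all genes. The median log2 fold changes of the 103 were 1.93 and 1.86. Their summed level was 2.50-fold higher at day 5 in WT and 2.66-fold in the KO-labelled libraries, against 11.9-fold and 10.2-fold for the 52. Among them, 6 of 15 APC/C genes rose in each genotype, or 40%, against 24.7% and 26.2% of all genes. None of these 15 fell, and their median log2 fold changes were 0.47 and 0.41. Of 15 genes of cohesin and its regulators, 5 rose and 3 fell in WT, or 33.3% and 20%, against 24.7% and 23.6% of all genes. Among the KO-labelled libraries, 7 rose and 3 fell, or 46.7% and 20%, against 26.2% and 24% of all genes. The 3 that fell in both were *Esco1*, a cohesin acetyltransferase (log2 fold change -0.80 in WT and -1.43 in the KO-labelled libraries), and *Nipbl* (-0.79 and -0.98) and *Mau2* (-0.91 and -1.17), the 2 subunits of the cohesin loader. *Numa1*, which anchors spindle poles, also fell in both (-1.52 and -0.80).

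Of the remaining lists, 17 of 18 other spindle and cytokinesis genes (94.4%) and 12 of 13 other mitotic kinases and phosphatases (92.3%) rose in each genotype. So did 22 of 27 other kinetochore and centromere genes (81.5%) and 3 of 3 condensin II subunits (100%), against 24.7% and 26.2% of all genes. Of the 12 G2 and M transcription factors and MuvB subunits, 5 rose in WT, or 41.7%, against 24.7% of all genes. In the other genotype 4 rose and 1 fell, or 33.3% and 8.33%, against 26.2% and 24% of all genes. Of 30 DNA replication genes, 28 rose in WT and 29 in the KO-labelled libraries, or 93.3% and 96.7%. Their median log2 fold changes were 2.27 and 2.34, and none was called lower.

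The second question is whether the genotypes differed before culture. At day 0, 4 of the 52 genes were called, or 7.69%, against 1.8% of all genes tested (0.913% higher and 0.889% lower in the KO-labelled libraries). *Pttg1* was the 1 higher member. *Birc5*, *Kif23* and *Racgap1* were lower, and the last 2 of these encode both subunits of centralspindlin. The other 48 did not pass the threshold, and 19 of the 52 had an unadjusted p under 0.05, or 36.5%, against 13.8% of all genes. In 11 genes both KO-labelled libraries lay above both WT libraries and in 14 they lay below, which is 21.2% and 26.9% of the list against 21.7% of all genes in each direction. At this day 37 to 39 of the 52 genes were under 10 CPM, and the median SE of the log2 fold change was 0.41, against 0.16 at day 5. The median absolute log2 fold change at day 0 was 0.42 for the list and 0.23 for all genes.

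*Pttg1*, at 24.2 and 20.8 CPM in WT against 186 and 118 CPM in the KO-labelled libraries, was 6.78-fold higher in the latter at day 0 (log2 fold change 2.76, SE 0.44, edgeR FDR 0.00716). The counts behind it were 135 and 92 reads in WT and 2170 and 645 reads in the KO-labelled libraries. The call was lost without WT replicate 1 (log2 fold change 2.88, edgeR FDR 0.135) or WT replicate 2 (2.66, edgeR FDR 0.146), when the remaining WT library was assumed to vary like the other groups. The 3 tested genes within 1 Mb of *Pttg1*, namely *Slu7*, *Pwwp2a* and *Ttc1*, had log2 fold changes between -0.09 and 0.31 at day 0, and none was called in a genotype comparison or the interaction. Separase, the partner of securin, was at 1 and 2 reads in the WT libraries at day 0.

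*Birc5* (chr11:117849251-117855743, GRCm38, plus strand), which encodes survivin, was at 3.04 and 2.71 CPM in WT and 1.03 and 0.184 CPM in the KO-labelled libraries at day 0. This is 17 and 12 reads against 12 and 1. The difference was 3.78-fold (log2 fold change -1.92, SE 0.42, edgeR FDR 0.0404). *Kif23* (chr9:61915905-61946774, GRCm38, minus strand) was at 88.0 and 86.2 CPM in WT against 55.9 and 58.7 CPM, a 1.52-fold difference (log2 fold change -0.61, SE 0.14, edgeR FDR 0.0454). *Racgap1* (chr15:99620496-99651656, GRCm38, minus strand) was at 41.5 and 42.7 CPM in WT against 17.4 and 25.9 CPM, a 1.98-fold difference (log2 fold change -0.99, SE 0.19, edgeR FDR 0.0243). In all 3 genes both KO-labelled libraries lay below both WT libraries.

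These 3 calls were close to the threshold and rested on few libraries. Each kept its direction in all 17 alternatives. *Birc5* was called in 7 of them, with edgeR or DESeq2 FDR from 0.00623 to 0.305, and was lost without any single library except KO-labelled replicate 1 at day 0. *Kif23* was called in 7 of 17, with FDR from 0.0156 to 0.268, and was lost without any day 0 library and without either day 5 KO-labelled library. *Racgap1* was called in 12 of 17, with FDR from 0.00114 to 0.182, and was lost without either WT library or KO-labelled replicate 1 at day 0. Within the 4 day 0 libraries alone, the FDR was 0.225 for *Birc5*, 0.0709 for *Kif23* and 0.0665 for *Racgap1*, and *Pttg1* was the 1 gene of the list still called.

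The promoters of the 3 genes that were lower in the KO-labelled libraries at day 0 are shown in the same form because these genes carry the day 0 calls. The promoters above were chosen for their motifs, so no contrast is drawn between the sets. The stretch of *Birc5* (chr11:117849087-117849236, plus strand) holds neither motif, and those of *Kif23* (chr9:61946800-61946949, minus strand) and *Racgap1* (chr15:99651657-99651806, minus strand) hold 1 CCAAT match each and no CHR.
Birc5: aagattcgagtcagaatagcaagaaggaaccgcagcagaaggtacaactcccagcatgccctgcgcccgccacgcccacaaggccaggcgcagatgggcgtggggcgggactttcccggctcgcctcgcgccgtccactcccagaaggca
Kif23: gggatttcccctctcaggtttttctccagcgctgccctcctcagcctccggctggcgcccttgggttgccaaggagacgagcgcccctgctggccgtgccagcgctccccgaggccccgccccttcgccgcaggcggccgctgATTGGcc
Racgap1: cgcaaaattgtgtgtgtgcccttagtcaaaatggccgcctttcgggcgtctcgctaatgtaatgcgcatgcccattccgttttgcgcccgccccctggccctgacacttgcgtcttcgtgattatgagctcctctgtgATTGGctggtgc

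**Figure D3:**
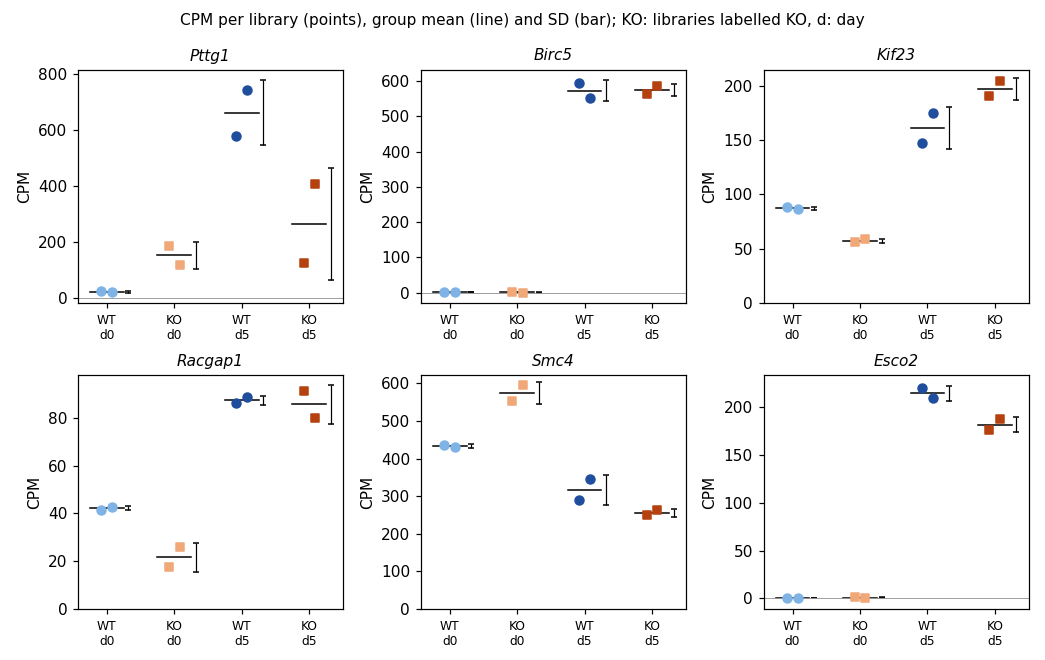
CPM of *Pttg1*, *Birc5*, *Kif23*, *Racgap1*, *Smc4* and *Esco2* in each library, with points for libraries, lines for group means and bars for the SD (n = 2), on axes that include 0. At day 0 the KO-labelled libraries lie above WT for *Pttg1* and below WT for *Kif23* and *Racgap1*, the 2 KO-labelled libraries at day 5 are far apart for *Pttg1* at 125 and 407 CPM, and *Smc4* is lower at day 5 than at day 0 in both genotypes.

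The third question is whether the genotypes differed after culture. At day 5, edgeR called 0 of the 52 genes, against 1.63% of all genes tested (1.31% higher and 0.318% lower in the KO-labelled libraries), and DESeq2 called 0 as well. An unadjusted p under 0.05 was reached by 7 of the 52, or 13.5%, against 14.1% of all genes. For 50 of the 52 genes the log2 fold change was within 0.5 of 0, with SE from 0.11 to 0.41 over the list. The median absolute log2 fold change at day 5 was 0.13 for the list and 0.25 for all genes. Both KO-labelled libraries lay above both WT libraries in 10 genes and below them in 12, or 19.2% and 23.1% of the list against 25% and 20.7% of all genes.

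The levels at day 5 show this directly. *Top2a* was at 2476 and 2454 CPM in WT and 2413 and 2613 CPM in the KO-labelled libraries. *Birc5* was at 594 and 553 CPM against 563 and 586 CPM, and *Racgap1* at 86.1 and 88.7 CPM against 91.4 and 79.9 CPM, so both genes that had been lower at day 0 overlapped between genotypes. *Kif23* was at 147 and 175 CPM in WT and 190 and 204 CPM in the KO-labelled libraries (log2 fold change 0.29, SE 0.13, edgeR FDR 0.340). KO-labelled replicate 2 was above replicate 1 in 48 of the 52 genes, with a median ratio of 1.10, whereas it was higher in 49.8% of all genes at 10 CPM or more.

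The 3 genes with the smallest unadjusted p at day 5 were *Pttg1*, *Cdc20* and *Cdk1*, all lower in the KO-labelled libraries. *Pttg1* had a log2 fold change of -1.31 (SE 0.39, edgeR FDR 0.124), which became -2.41 (edgeR FDR 0.00265) without KO-labelled replicate 2 and -0.70 (edgeR FDR 0.364) without KO-labelled replicate 1. *Cdc20*, at 39.9 and 103 CPM in WT against 28.9 and 38.1 CPM, had -1.09 (SE 0.34, edgeR FDR 0.154), which became -1.62 (edgeR FDR 0.0111) without WT replicate 1 and -0.25 (edgeR FDR 0.789) without WT replicate 2. Both lay outside 0.5 of 0, and both were called when no filter on low counts was used. *Cdk1* had -0.41 (SE 0.13, edgeR FDR 0.167). Across the 12474 genes with a known GC content, Spearman's rho between GC content and the day 5 difference was 0.31, and the 52 genes had a median GC content of 45.6% against 49.3% for all genes. Corrected for GC and length, the list still had 0 calls at day 5.

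**Figure D4:**
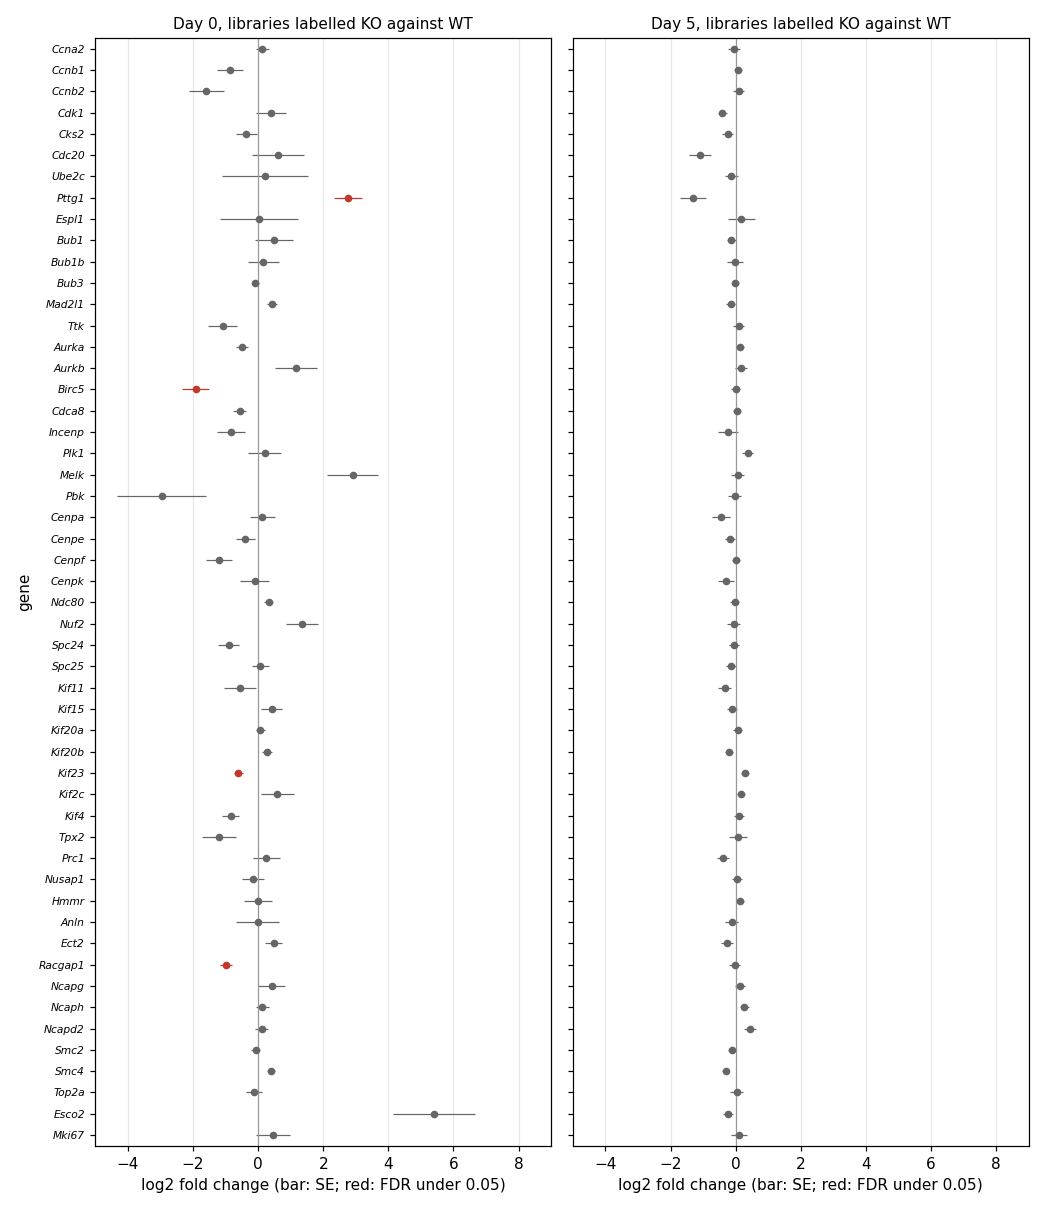
Log2 fold change of the KO-labelled libraries against WT for each of the 52 genes at day 0 (left) and day 5 (right), with SE bars and genes at edgeR FDR under 0.05 in red. At day 0 *Pttg1*, *Birc5*, *Kif23* and *Racgap1* are red and the bars of genes with few reads are long, with the *Esco2* position dependent on the prior count because WT had no read; at day 5 no gene is red and all but *Pttg1* and *Cdc20* lie within 0.5 of 0.

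The difference between the days was tested as an interaction, in which the log2 genotype difference of day 0 is subtracted from that of day 5. It called 1 of the 52 genes, *Pttg1*, against 0.159% of all genes tested (0.0794% in each direction). Its value was -4.07 (SE 0.59, edgeR FDR 0.0168), from 6.78-fold higher in the KO-labelled libraries at day 0 to 2.49-fold lower at day 5. The call was lost without WT replicate 1 of day 0 (edgeR FDR 0.156), without WT replicate 2 of day 0 (edgeR FDR 0.225) and without WT replicate 2 of day 5 (edgeR FDR 0.0556). An unadjusted p under 0.05 was reached by 18 of the 52, or 34.6%, against 12.4% of all genes. After *Pttg1* the smallest p belonged to *Kif23* (interaction 0.90, SE 0.19, edgeR FDR 0.0923) and *Esco2* (edgeR FDR 0.122), whose fitted value depends on the WT libraries without a read at day 0. *Smc4* had an interaction of -0.71 (SE 0.17, edgeR FDR 0.133). Spearman's rho between GC content and the interaction was 0.343 across genes, and correcting for GC and length left 1 member called. The day 0 genotype comparison, the culture comparison in WT and the interaction share the 2 WT libraries of day 0.

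In the other lists, few genes differed by genotype. At day 0, 2 of the 103 other mitosis genes were called, or 1.94%, against 1.8% of all genes, and 27.2% had an unadjusted p under 0.05, against 13.8% of all genes. Both genes called were lower in the KO-labelled libraries. *Anapc5*, an APC/C subunit, was at 207 and 213 CPM in WT and 107 and 113 CPM in the KO-labelled libraries (log2 fold change -0.93, edgeR FDR 0.0025). *Smc3*, a core cohesin subunit, was at 164 and 157 CPM against 94.0 and 96.5 CPM (log2 fold change -0.75, edgeR FDR 0.0178). None of the 103 was called at day 5 or in the interaction, where 17 and 28 of them, or 16.5% and 27.2%, had an unadjusted p under 0.05, against 14.1% and 12.4% of all genes. Among the 30 replication genes, *Gins4*, a subunit of the replicative helicase, was lower in the KO-labelled libraries at day 0, at 26.1 and 29.2 CPM against 59.9 and 63.5 CPM (edgeR FDR 0.0040). *Uhrf1*, which carries DNA methylation through replication, was higher in them at day 5, at 116 and 146 CPM against 66.7 and 60.2 CPM (edgeR FDR 0.0169).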

How the data were processed

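RNA of 8 libraries of sorted splenic CD8+ T cells (4 groups of 2) was sequenced. Per the labels, total RNA was extracted with Trizol, libraries were made with the NEBNext Ultra kit and 50 bp reads came from a HiSeq2500. The submitters' processing notes name HISAT2 2.1.0, HTSeq 0.11.1 and the mm10 (GRCm38) assembly, and the annotation and strand setting are not given in the sources used here. The authors deposited raw read counts per gene symbol, with no normalization or pooling. The summary lines of the counting program were left out, so that gene rows held 21.2% to 24.5% of the records.

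One fit of all 8 libraries with a mean per group was made in R 4.3.3 with the edgeR 4.0.16 quasi-likelihood test (legacy form), TMM factors and the default filter (minimum count 10), and 12597 genes passed. Their common coefficient of biological variation was 15.0%. P-values were two-sided and given a Benjamini-Hochberg adjustment (FDR) across all of these, with calls made at FDR under 0.05. CPM used TMM-scaled library sizes. Lengths, positions and GC content came from GENCODE M21, and promoters from RefSeq (GRCm38.p6). A fold against libraries with no read is a bound against 3 counts, and a ratio over 1 to 3 reads carries an exact 95% interval. Neither covers more than counting error, so the spread between libraries is left out of both. The reads also carry no molecular identifiers. The code of the fit was also run on simulated counts. The changed genes there did not have the few day 0 reads and large changes of many members, so that run does not bear on those calls. Python 3.11.15, pandas 2.3.3 and matplotlib 3.10.9 were also used.

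Named with values were, in each role, the members with the largest and smallest culture response, members not called upward in both genotypes, members called by genotype and the 3 with the smallest p, members whose replicates differed over 2-fold, *Pttg1*, *Esco2* and *Pbk*, *Satb1*, and genes of other lists called by genotype or called downward in both genotypes. Other genes named, including those whose promoters are printed, were chosen after their values were seen. The members and lists were chosen with earlier results of these data known. Alternatives were DESeq2 1.42.0 size factors, library totals, no filter, the libraries of a comparison alone, a replicate block, the edgeR 4 form, DESeq2, thinning to 4170126 counts, a GC and length offset (loess span 0.3), and leaving out each library. A listed marker gene is not reported here.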

Additional observations from a re-analysis of the deposited data

Results flagged for a closer look

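*Pttg1* differed between the days in its genotype difference. The interaction test of edgeR gave a log2 value of -4.07 (SE 0.59, FDR 0.0168), with the KO-labelled libraries 6.78-fold above WT at day 0 and 2.49-fold below WT at day 5, where the difference itself did not pass the threshold (edgeR FDR 0.124). The levels behind it are 24.2 and 20.8 CPM in WT against 186 and 118 CPM in the KO-labelled libraries at day 0, and 579 and 742 CPM against 125 and 407 CPM at day 5. Over the 16 alternatives the interaction lay between -5.17 and -3.46 and was called in 13.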

How the results depend on the processing

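The counts of members called with culture (52 in WT and 51 in the KO-labelled libraries) lay between 51 and 52 when each library was left out in turn, and stayed within 1.5 times under all other alternatives. The genotype counts moved more. At day 0, against 4 in the fit as reported, 7 members were called with no filter on low counts, 1 with only the 4 libraries of the comparison and 2 at equal depth (over all genes 434, 203 and 215, against 227), and between 0 and 5 when each library was left out. At day 5, against 0, the count was 2 with no filter (over all genes 418, against 205) and between 0 and 1 with each library left out. For the interaction, against 1, it was 5 with no filter, 4 with DESeq2, 2 at equal depth (over all genes 154, 144 and 44, against 20) and between 0 and 2 with each library left out. In the fit with a replicate block, the 5 counts were 52, 51, 3, 0 and 1, and the call lost was *Birc5* (FDR 0.0527). The replicate numbers share no stated source, and deviations of same-numbered libraries had correlations from -0.0722 to 0.224. Among the values recomputed gene by gene, 1 reversed, that of *Pttg1* with culture in the KO-labelled libraries, at -0.29 without replicate 2 of day 5 and 1.42 without replicate 1, against 0.80. The cause was not tested. Over all 52 members, uncalled genotype differences near 0 also changed sign in some settings, such as *Birc5*, *Cenpf* and *Top2a* at day 5 with library totals. Summed CPM of the members at day 0 was 1480 in WT and 1686 in the KO-labelled libraries, and 17650 and 17150 at day 5. With library totals it was 1551 and 1781 at day 0 and 16900 in WT at day 5, with DESeq2 size factors 1668 in the KO-labelled libraries at day 0, and without *Top2a*, the member with the highest CPM over all libraries, 1669 at day 0 in the KO-labelled libraries and 15190 and 14630 at day 5. Of the values recomputed, 737 kept their direction and side of the threshold or stayed within their spread, 35 lost a call, 8 gained one, 26 counts or sums moved further, as given above, and 1 reversed. At day 0, 11 to 16 members per library were under 1 CPM, and values for these rest on few reads.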
